A study of Mus musculus with 2 samples.

Results

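The cells described here are the Cx3cr1 Cd72 macrophages of the mouse mitral valve, a population of 487 cells among the 4313 filtered cells of both libraries and among 1772 gated macrophages. They were chosen from their own readout. A cell entered the macrophage gate when it held at least 10 unique molecular identifiers (UMIs, each standing for 1 captured RNA molecule) of C1qa, C1qb and C1qc together, fewer than 5 of Col1a2 and Col3a1, and 0 of Flt3. Within the gate, a cell was a member when at least 3 of the 7 genes of set B (Cx3cr1, Cd72, Tnfsf13b, Gpr84, Il1a, Slamf7 and Scimp) were detected and more genes of set B than of set A (Lyve1, Folr2, Cd163, Vsig4, F13a1, Cd209f and Fcna). The WT library gave 86 members and the mgR library 401. Macrophages with at least 3 set A genes and more of set A than of set B, called set A cells, served as the comparison, 80 of them WT and 893 mgR.

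Leaflets of 12-week-old mice had been digested with collagenase A and elastase, and viable cells were sorted and captured for 3-prime single-cell RNA-Seq, with 1 library per genotype. WT stands for Fbn1+/+ mice, and mgR for mice homozygous for the Fbn1 mgR allele, which make too little fibrillin-1, a protein of elastic tissue microfibrils whose gene is mutated in Marfan syndrome, both on a C57BL/6J background. The mgR allele is present in all cells of the animal, no drug was given, and 3 mice are named for this experiment in the study's legends, though not how they were divided between or pooled in the libraries. Filtered WT cells held 4577647 UMIs and filtered mgR cells 26678452, at medians of 5033 and 7370 UMIs per cell, so values of the mgR library are the more precise. Fbn1, read in fibroblast-gated cells, stood at 216 counts per 1000000 UMIs (CPM) in WT and at 166 in mgR, a ratio of 0.766 (0.654 to 0.90), and members held 0 and 4 Fbn1 UMIs. The methods state that experimental comparisons used male mice only, whereas both libraries held cells with UMIs of Xist and none of a Y-linked gene. Cells with UMIs of Xist and of no Y-linked gene are called Xist-only here, and the reverse Y-only. Among members, Xist-only cells made up 36% in WT and 66.6% in mgR, and Y-only cells 34.9% and 19.0%. Values within each kind of cell are therefore given beside the main differences between the libraries. With 1 library per genotype no test was possible and no P value is given. All intervals in parentheses are 95% intervals that cover counting error only, and in no case the difference between animals.

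Some tissue macrophages clear debris and carry scavenger receptors such as Lyve1, Folr2, Cd163 and Vsig4, and others are marked by antigen presentation on MHC class II. Either kind can be resident in a tissue, and both can release cytokines. Genes of the first kind are called resident macrophage genes here, and where members came from was not tested. The genes of set B belong mainly to signaling and activation. Cx3cr1 is the receptor for the chemokine fractalkine, Cd72 an inhibitory C-type lectin-like receptor, Tnfsf13b the B cell survival factor BAFF, Gpr84 a receptor for medium-chain fatty acids, Il1a the cytokine interleukin-1 alpha, Slamf7 a receptor of the SLAM family and Scimp an adaptor of immune tetraspanin domains. MHC class II molecules load peptides from engulfed proteins for display to helper T cells, and their genes are known to share the promoter elements called X box and Y box.

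The genes that set members farthest apart from set A cells outside the rule included those of MHC class II, and promoter sequences of 3 of these are printed for that reason. The sequences run 5′ to 3′ from 250 bases before to 50 bases after the RefSeq start site in GRCm38.p6, and capitals mark matches, on either strand, to GATTGG, the core of the Y box, or to AACNGATG, part of the X box. These motifs were chosen after the values had been seen. The window of H2-Eb1 is chr17:34305617-34305916 on the plus strand, that of H2-DMb1 chr17:34152941-34153240 on the plus strand, and that of H2-Aa chr17:34287774-34288073 on the minus strand.
H2-Eb1: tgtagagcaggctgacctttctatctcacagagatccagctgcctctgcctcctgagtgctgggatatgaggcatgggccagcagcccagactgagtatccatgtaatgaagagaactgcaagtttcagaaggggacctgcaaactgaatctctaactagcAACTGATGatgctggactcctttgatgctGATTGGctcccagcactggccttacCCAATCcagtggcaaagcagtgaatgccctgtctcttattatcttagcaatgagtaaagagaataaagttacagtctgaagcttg
H2-DMb1: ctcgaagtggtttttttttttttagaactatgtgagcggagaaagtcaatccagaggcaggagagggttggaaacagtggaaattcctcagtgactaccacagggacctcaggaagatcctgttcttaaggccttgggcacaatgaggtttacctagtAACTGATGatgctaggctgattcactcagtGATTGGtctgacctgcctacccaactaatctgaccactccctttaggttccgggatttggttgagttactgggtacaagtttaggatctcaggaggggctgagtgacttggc
H2-Aa: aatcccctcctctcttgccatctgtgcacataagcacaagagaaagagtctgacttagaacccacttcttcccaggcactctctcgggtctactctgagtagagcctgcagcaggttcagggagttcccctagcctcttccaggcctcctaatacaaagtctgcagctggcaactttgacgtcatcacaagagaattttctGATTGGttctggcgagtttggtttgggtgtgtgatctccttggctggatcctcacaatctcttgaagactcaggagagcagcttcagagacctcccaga
In H2-Eb1 the X box match began 89 bases and the Y box match 60 bases before the start site, with a further GATTGG match on the opposite strand at 35 bases. In H2-DMb1 the matches began 92 and 62 bases before the start. H2-Aa held GATTGG at 49 bases and no match to the X box letters. GATTGG occurred in 8 of the 10 promoters found for the MHC class II list, against 16.1% of all 32851 promoters of the table, and AACNGATG in 5 of the 10, against 2.32%. Both occurred together in 110 promoters of the whole table (0.335%). A match describes letters and is not a measured binding site.

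The promoters of the eponymous Cd72 and Cx3cr1 are shown with matches to GAGGAA, the core bound by the myeloid factor PU.1, searched on both strands. The window of Cd72 is chr4:43454577-43454876 on the minus strand and that of Cx3cr1 chr9:120068247-120068546 on the minus strand.
Cd72: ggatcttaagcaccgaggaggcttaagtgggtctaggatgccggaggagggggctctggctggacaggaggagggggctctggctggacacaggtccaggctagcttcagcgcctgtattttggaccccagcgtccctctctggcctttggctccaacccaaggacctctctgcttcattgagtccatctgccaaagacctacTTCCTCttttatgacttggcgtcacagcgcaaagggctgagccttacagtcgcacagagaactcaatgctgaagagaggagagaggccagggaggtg
Cx3cr1: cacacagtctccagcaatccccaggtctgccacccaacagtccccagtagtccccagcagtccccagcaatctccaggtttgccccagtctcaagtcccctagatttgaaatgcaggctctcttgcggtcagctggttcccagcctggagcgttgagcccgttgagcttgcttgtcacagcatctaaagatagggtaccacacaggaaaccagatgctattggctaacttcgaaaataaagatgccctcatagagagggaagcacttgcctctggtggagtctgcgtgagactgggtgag
Cd72 held 1 match on the opposite strand, beginning 47 bases before the start site, and these letters were not in the Cx3cr1 window. Of the 6 set B genes with an entry, 2 held the motif (Cd72 and Il1a), and of all promoters 28.3% did.

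Genes of the macrophage class were read in members. C1qa, the complement subunit used in the gate, had a UMI in 86 of 86 WT and 400 of 401 mgR members. The gate asks for C1q UMIs, so this detection was nearly fixed in advance. Csf1r, the receptor for the macrophage growth factor CSF1, stood at 616 CPM in WT and 591 CPM in mgR members, and Adgre1, which encodes F4/80, at 225 and 266 CPM. The genes of the rule are described without a test. Cd72 was detected in 83.7% of WT and 78.8% of mgR members, and Cx3cr1 in 67.4% and 81.0%. In fibroblast-gated cells, which should lack both genes, Cx3cr1 had a UMI in 0 of 141 WT cells (a count that leaves room for 2.13%), and in 0.380% of mgR cells, and Cd72 in 2.13% and 1.33%. Median depth was 6477.5 and 8210 UMIs in WT and mgR members, and 6443 and 7941.5 in the fibroblast-gated cells. With every cell thinned to 3000 UMIs, Cx3cr1 was detected in 45.3% of WT and 51.6% of mgR members, and in 20.3% and 12.8% of set A cells.

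The plot of set B against set A genes per macrophage shows how the rule divides each library. Exactly 3 set B genes, the least the rule accepts, were found in 33 WT and 136 mgR members, and all 7 in 2 and 6. Just outside it lay 20 WT and 72 mgR macrophages with 2 set B genes and fewer set A genes. A further 4 and 43 had at least 3 set B genes and as many of set A. The members were not equally free of set A genes. In WT, 74 of 86 (86.0%) had 0 of them, and in mgR 253 of 401 (63.1%).

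**Figure D1:**
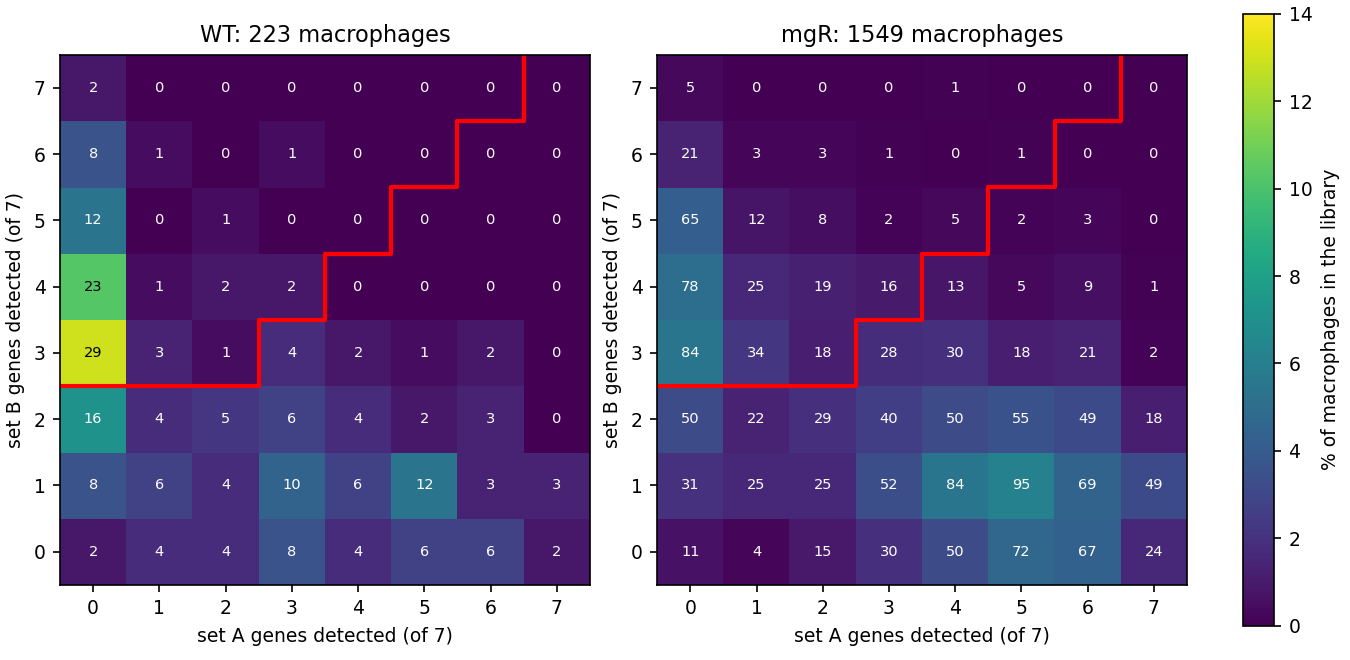
Macrophages of each library by the number of set A genes (horizontal axis, 0 to 7) and of set B genes (vertical axis, 0 to 7) with at least 1 UMI. Each square gives the number of cells, its colour the percent of that library's macrophages, and cells above the red line are members: 86 of 223 in WT and 401 of 1549 in mgR, with 74 and 253 of them in the column of 0 set A genes.

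How the set B genes are shared among cells is given as a description, since the 7 genes were picked together as markers on these cells. Each gene was left out in turn, and members were chosen again by at least 3 of the other 6 genes. Cd72 was then found in 46 of 60 WT cells (76.7%) and in 216 of 301 mgR cells (71.8%), against 18.3% and 23.1% of cells of the opposite set. Tnfsf13b was found in 28.9% and 34.5% of cells, against 1.25% and 5.22%. Scimp was found in 46.1% and 48.5%, against 8.75% and 6.97%. Il1a was the least separated in mgR. It was found in 47.1% (35.1 to 59.4) of WT cells against 22% (13.6 to 32.5), and in 30.8% (26.1 to 35.8) of mgR cells against 20.7% (18.1 to 23.5).

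**Figure D2:**
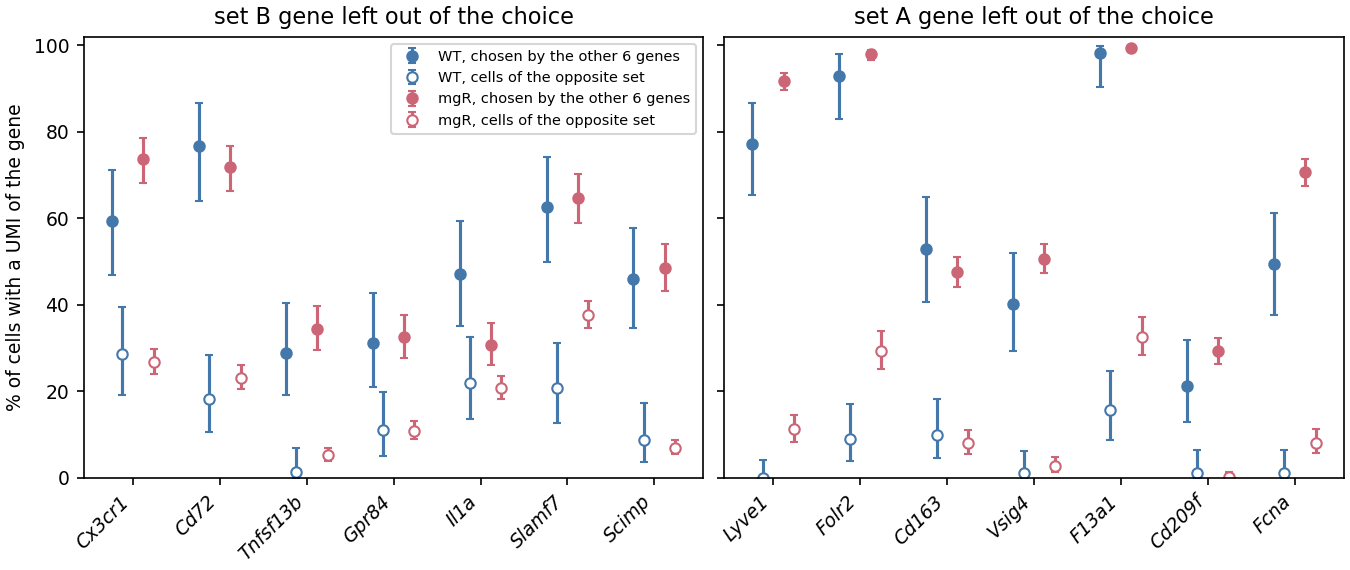
Percent of cells with a UMI of each marker (vertical axis) among cells chosen without that marker (filled circles) and among cells of the opposite set (open circles), in WT (blue) and mgR (red), with exact binomial 95% intervals. Cd72, for example, was found in 76.7% of chosen WT cells and in 18.3% of the opposite ones, and Il1a had the smallest gap of the set B genes in mgR.

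Of all gated macrophages, members made up 38.6% (32.1 to 45.3) in WT and 25.9% (23.7 to 28.1) in mgR, a difference of -12.7 percentage points (-19.7 to -5.87). Set A cells moved the other way, from 35.9% (29.6 to 42.5) to 57.7% (55.1 to 60.1). Since detection rises with depth and the mgR cells were deeper, the rule was also applied to cells thinned to 3000 UMIs, which left out 16 WT and 45 mgR macrophages. Members were then 27.1% of WT and 13.4% of mgR macrophages, a difference of -13.6 points (-20.4 to -7.42). Among Xist-only macrophages the shares were 40.3% and 25.6%, a difference of -14.7 points (-26.7 to -3.29). Among Y-only macrophages they were 34.1% and 25.9%, and that interval held 0 (-20.1 to 3.02). Counted over all filtered cells, members were 9.83% in WT and 11.7% in mgR, with an interval of the difference that held 0 (-0.575 to 4.03 points), whereas set A cells were 9.14% and 26.0%. The lower share of members among mgR macrophages thus stood beside more set A cells, while the share of members among all cells did not differ beyond counting error. Digestion and sorting can recover cell types unequally, and their part in these shares was not tested.

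Members and set A cells were compared within each library to describe what the members share beyond the rule. Of the 3011 genes with at least 50 UMIs over both populations in each library, 257 (8.54%) were at least 1.5-fold higher in members in both libraries and 441 (14.6%) at least 1.5-fold lower. These shares are the background for the gene groups that follow. Since the rule itself divides the macrophages, the values are descriptions. The median log2 ratio over all genes was -0.13 in WT and -0.058 in mgR, and genes of the groups fell along the same diagonal in both libraries in the plot of the ratios.

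**Figure D3:**
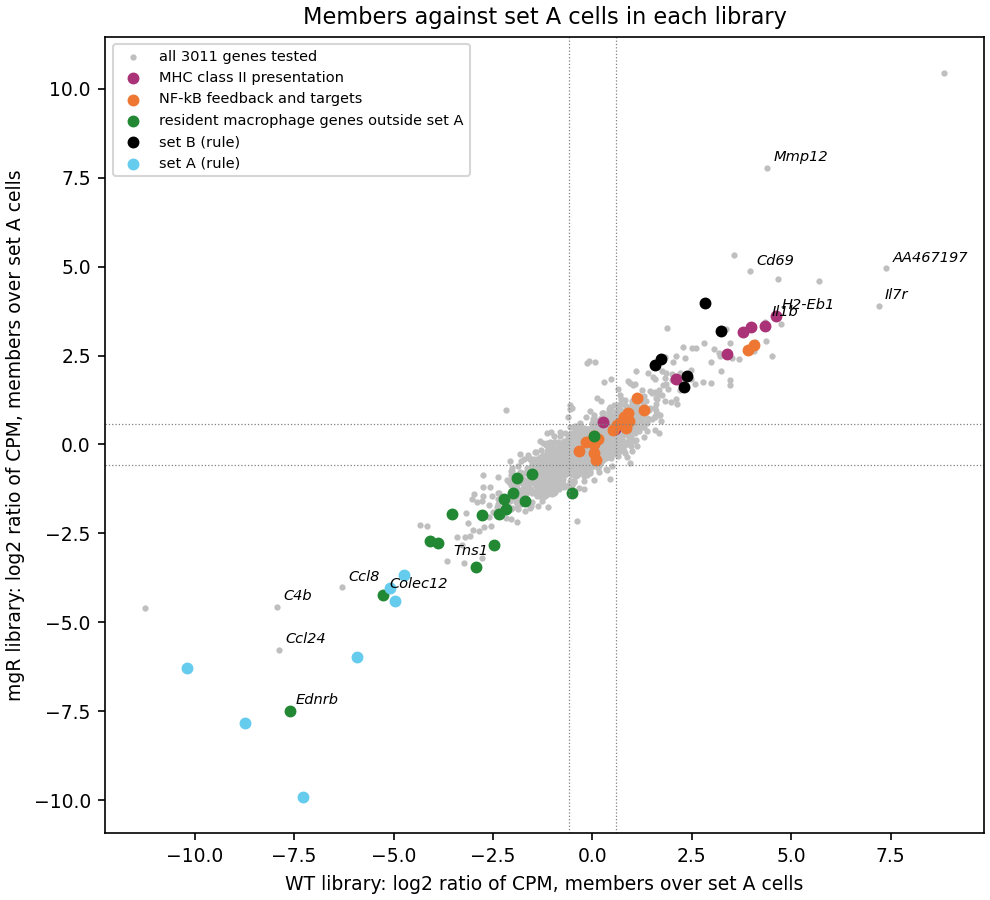
Log2 ratio of CPM, members over set A cells, in the WT library (horizontal axis) and the mgR library (vertical axis) for the 3011 genes tested, with gene groups coloured, named genes labelled and dotted lines at 1.5-fold. A count of 0.5 was added to both populations only where a gene had 0 UMIs in either, so positions of those genes depend on it. MHC class II genes lie in the upper right (median log2 ratio 3.59 in WT and 2.86 in mgR) and resident macrophage genes in the lower left (-2.34 and -1.96).

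Antigen presentation was the group with the highest median log2 ratio among the lists with at least 5 genes tested. Of the 8 MHC class II genes tested, 6 were higher in members and 0 lower. H2-Eb1, which encodes the beta chain of I-E, stood at 8850 CPM in WT members and 363 CPM in WT set A cells, a ratio of 24.4 (21.1 to 28.3), and at 5898 and 478 CPM in mgR, a ratio of 12.3 (11.9 to 12.8). H2-Ab1, the beta chain of I-A, stood at 8267 and 411 CPM in WT and at 5858 and 582 CPM in mgR. Cd74, the invariant chain that guards the peptide groove, stood at 22664 and 1630 CPM in WT and at 16640 and 1841 CPM in mgR. The peptide-loading genes followed at lower ratios, with H2-DMb1 at 10.5 (7.15 to 15.9) and 5.81 (5.32 to 6.35), and H2-DMa at 4.28 and 3.56. Ctss, a protease that trims Cd74, did not pass, at 1.48 and 1.36. MHC class II was not particular to members. The 57 WT and 255 mgR macrophages in neither set held H2-Eb1 at 6553 and 4245 CPM, and dendritic-gated cells held it at 11078 and 9892 CPM.

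Inflammatory genes were also higher in members. Il1b, which encodes interleukin-1 beta, stood at 3194 CPM in WT members and 157 CPM in WT set A cells, and at 1772 and 163 CPM in mgR, ratios of 20.3 (16.3 to 25.6) and 10.9 (10.2 to 11.5). Il1b was not particular to members, since macrophages in neither set held it at 2722 CPM in WT and 1889 CPM in mgR. Of the 19 NF-kB feedback and target genes tested, 9 were higher in members and 0 lower, at a median log2 ratio of 0.69 in WT and 0.54 in mgR. The highest of these were Malt1, a signaling protease, at 16.8 (6.32 to 63.4) and 7.0 (5.55 to 8.89), and Tnip3, an inhibitor of NF-kB, at 15.1 (8.49 to 29.8) and 6.26 (5.60 to 6.99). Nfkbia, the best known feedback inhibitor, stood at 1.03 and 1.18. Of 8 cytokine genes tested, 3 were higher (Il1b, Tnf and Tnfsf9) and 1 lower (Osm, oncostatin M). Tnf was far less divided than Il1b, with 2613 CPM in WT members against 1465 CPM in set A cells, and 1973 against 1207 CPM in mgR. Of 12 co-stimulatory and SLAM family receptors tested, 6 were higher and 0 lower, among them the SLAM receptor Slamf9 at 3.38 and 4.17 and the T cell ligand Icosl at 2.09 and 3.25.

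Chemokines were split between the populations. Of 16 tested, 5 were higher in members (Ccl4, Ccl5, Cxcl3, Cxcl10 and Cxcl16) and 7 lower (Ccl2, Ccl6, Ccl7, Ccl8, Ccl9, Ccl24 and Pf4). Ccl5, a ligand that draws T cells, stood at 883 CPM in WT members and 159 CPM in set A cells, and at 309 and 71.9 CPM in mgR. Ccl8, a monocyte attractant, went the other way, at 13.4 and 1054 CPM in WT and at 98.2 and 1582 CPM in mgR, ratios of 0.0127 (0.00547 to 0.0253) and 0.0621 (0.0557 to 0.0690). Ccl24, an eosinophil attractant, had 0 UMIs in WT members and stood at 197 CPM in WT set A cells, at least 39.1-fold lower in members against a floor of 3 counts, and at 5.59 and 304 CPM in mgR.

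Among the other genes that led the members were proteases and receptors of lymphoid name. Mmp12, the macrophage elastase, stood at 718 CPM in WT members against 34.1 CPM in set A cells, and at 247 against 1.12 CPM in mgR. Its UMIs sat in few cells, 40.7% of WT and 22.2% of mgR members, and the 5 highest WT members held 48.4% of them. Il7r, the interleukin-7 receptor, stood at 138 and 133 CPM in WT and mgR members, against 0 UMIs and 8.83 CPM in set A cells, at least 24.2-fold and 15.0-fold higher. T and NK cells are the usual source of Il7r, at 1993 and 1810 CPM in the T and NK gate. Of the 8 T and NK markers, 6 were at 0 in WT members, and in mgR members the 8 summed to 29.1 CPM. Cd69, an activation marker, stood at 117 and 124 CPM in members against 7.57 and 4.23 CPM. Macrophages in neither set held Mmp12 at 601 CPM in WT and 310 CPM in mgR, and Il7r at 142 and 105 CPM. They held Cd69 at 72.7 and 28.5 CPM. Mmp12 and Il7r were thus not particular to members. AA467197, Bcl2a1a (which has near-identical copies, so its value is uncertain), Glipr1 and Plbd1 completed the 12 leading genes. Of these, AA467197 and Plbd1 were not particular to members either. AA467197 stood at 158 CPM in WT and 189 CPM in mgR members, against 332 and 107 CPM in dendritic-gated cells. Monocyte-gated cells held it at 42.6 CPM in WT (2 UMIs) and 668 CPM in mgR. Plbd1 stood at 233 and 161 CPM in members, against 785 and 727 CPM in dendritic-gated cells. Macrophages in neither set held Plbd1 at 177 and 148 CPM. Tissue-remodelling genes also included Mmp14, which activates other metalloproteinases, at 117 CPM against 20.8 CPM in WT and 123 against 18.8 CPM in mgR.

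Resident macrophage genes outside set A were also low in members. Since set A itself consists of resident genes, and set A cells were chosen by them, these values are descriptions and not independent of the rule. Of 17 genes tested outside set A, 15 were lower in members in both libraries and 0 higher, at median log2 ratios of -2.34 and -1.96. Mrc1, the mannose receptor, stood at 263 CPM in WT members and 1819 CPM in set A cells, and at 453 and 1792 CPM in mgR. Gas6, the bridge between dying cells and Axl or Mertk, stood at 33.6 and 492 CPM in WT, and at 90.6 and 620 CPM in mgR. Ednrb, the endothelin B receptor, had 0 and 4 UMIs in WT and mgR members and stood at 163 and 200.2 CPM in set A cells. C4b (whose value is uncertain, since the near-identical C4a can share its reads), Colec12, Tns1, Clec10a, Ccl6 and Wfdc17 joined Ednrb, Ccl24, Ccl8 and Gas6 as the 10 lowest genes, with Wfdc17 the most abundant of these in members, at 368 against 2529 CPM in WT and 320 against 2952 CPM in mgR. Of 12 genes for uptake of dying cells, 6 were lower and 1 higher. The exception was Axl, a Gas6 receptor, at 158 CPM in WT members against 49.2 CPM, and at 115 against 39.9 CPM in mgR, while the related receptor Mertk was lower at 11.7 against 92.7 CPM and 29.9 against 79.0 CPM. Of 10 lipid-associated genes tested, 3 were higher (Cd9, Lgals3 and Mmp12) and 6 lower, among them Apoe at 7342 against 31126 CPM in WT and 8594 against 24249 CPM in mgR. Among genes of the general macrophage list, 3 of 18 were lower (Csf1r, Lyz2 and Mertk) and 0 higher. Of 19 myeloid transcription factors, 2 were higher (Irf5 and Runx3) and 6 lower, among them Maf at ratios of 0.222 and 0.286 and Klf4 at 0.272 and 0.284.

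Dissociation stress genes, which the digestion can switch on, did not lead the members. Of 20 tested against set A cells, 0 were higher in members and 7 were lower in both libraries, among them Jun at ratios of 0.310 and 0.371. Between the libraries, 3 of 21 were lower in mgR members and 1 higher, beside 5.98% and 20.6% of all genes. The counting interval lay below 1 for 9 of the 21 and above 1 for 2. The part of the digestion in the levels of members was not tested. Of the 5 cell cycle genes tested, 3 were higher in members (Mki67, Stmn1 and Hmgb2), with Mki67 at 75.5 against 18.9 CPM in WT and 158 against 44.8 CPM in mgR. Mki67 UMIs were found in 10 of 86 WT and 70 of 401 mgR members, and the 5 highest WT cells held 88.9% of them.

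Members differed among themselves more than their shared rule would show. H2-Ab1 ranged from 0 to 201 UMIs per 10000 in WT members and from 0 to 403 in mgR members, with medians of 84.6 and 64.2. Cells under 10 per 10000 made up 15.1% (8.30 to 24.5) of WT and 26.4% (22.2 to 31.0) of mgR members. These cells were commoner among members with at least 1 set A gene, at 6 of 12 in WT and 61 of 148 (41.2%) in mgR, than among members with 0 set A genes, at 7 of 74 (9.46%) and 45 of 253 (17.8%). Ccl4 and Il1b were spread more widely still. The median of Ccl4 was 96.6 UMIs per 10000 in WT and 23.6 in mgR members, with 6 and 71 cells at 0, and the median of Il1b was 13.6 and 3.52, with 21 and 137 cells at 0. Across members, H2-Ab1 and H2-Aa ranked alike (Spearman's rho 0.863 over 86 WT cells and 0.942 over 401 mgR cells), and H2-Ab1 and Il1b less so (0.399 and 0.427). These correlations are across cells that share a library and a depth, and are given as descriptions.

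**Figure D4:**
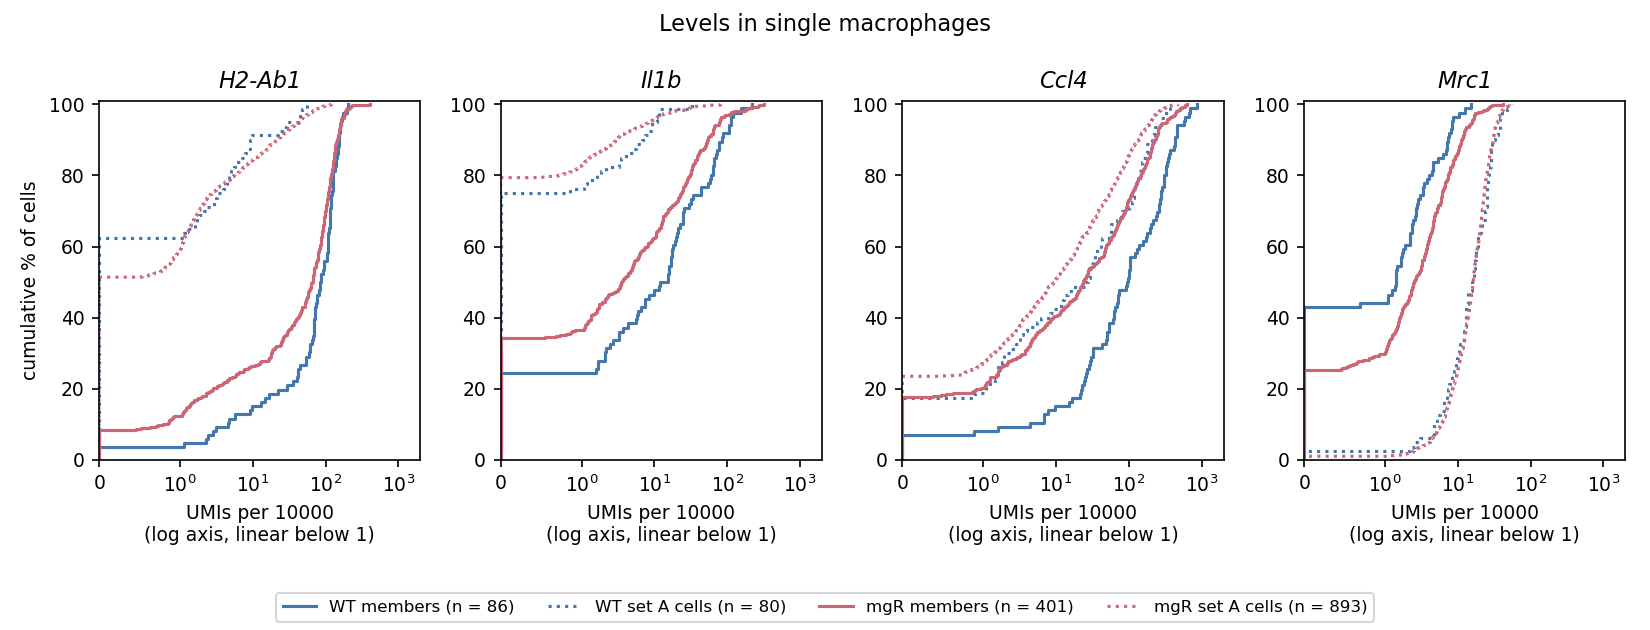
Cumulative percent of cells (vertical axis) up to each level of H2-Ab1, Il1b, Ccl4 and Mrc1 (horizontal axes, UMIs per 10000, logarithmic above 1), for members (solid) and set A cells (dotted) of the WT (blue) and mgR (red) libraries. For H2-Ab1 the member curves lie far to the right of the set A curves, with 15.1% of WT and 26.4% of mgR members below 10, and for Mrc1 the order is reversed.

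Ccr2, the receptor by which monocytes leave the blood, was not part of the rule. It had a UMI in 18 of 86 WT members (20.9%) and in 82 of 401 mgR members (20.4%), against 0 of 80 and 2.80% of set A cells. Its level in members was 65.5 CPM in WT and 58.5 CPM in mgR, a ratio of 0.893 (0.632 to 1.29). Ccr2 was not particular to members. Macrophages in neither set held it at 50.6 CPM in WT and 104 CPM in mgR, and the T and NK gate at 351 and 346 CPM. Members with Ccr2 held more Il1b than those without, at 6337 against 2146 CPM in WT and 3002 against 1393 CPM in mgR. Cd209a, a dendritic cell marker, moved with it, at 47.0 against 2.24 CPM in WT (7 and 1 UMIs) and 16.6 against 0.731 CPM in mgR (14 and 2 UMIs), and dendritic-gated cells held Il1b at 4834 and 4720 CPM. The part of such cells in the difference was not tested. Members with Ccr2 were also deeper, at medians of 7699 against 6059.5 UMIs in WT and 9234.5 against 7845 in mgR. Ly6c2, a marker of classical monocytes, had 0 UMIs in all 86 WT members. In mgR members it stood at 149.8 CPM in cells with Ccr2 and 22.3 CPM in cells without, and 10 cells held all of its UMIs.

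The comparison of mgR with WT members addresses how the population differs in the diseased valve. Of the 6388 genes with at least 50 UMIs over members of both libraries, 1315 (20.6%) were at least 1.5-fold higher in mgR and 382 (5.98%) at least 1.5-fold lower. The counting interval excluded 1 for 1032 genes above and 502 below. Because WT members held 595844 UMIs and mgR members 3575543, many of these genes had few WT UMIs. The median log2 ratio was 0.17, and scaling by the median gene ratio gave 887 higher and 673 lower, so that the share of higher genes among those past the fold went from 77.5% to 56.9%. Differences between the libraries cannot be told apart from differences between the animals, the digestions and the captures.

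Cytokines and chemokines were the groups in which the libraries differed most often toward lower values in mgR. Of 12 cytokine genes tested, 6 were lower in mgR members and 2 higher, and of 20 chemokines, 9 were lower and 6 higher. Over all genes tested, 5.98% were lower and 20.6% higher. Within kinds of cell, WT held 31 Xist-only and 30 Y-only members, and no share over all genes is given beside such counts here or below. Of the 19 cytokine genes listed, 3 had intervals below 1 in both kinds of cell and 0 had intervals above 1 in both. The direction depended on the kind of cell for 5 of the 21 chemokines listed (Ccl2, Ccl7, Ccl9, Ccl12 and Pf4), with intervals on opposite sides of 1. Pf4, platelet factor 4, had a ratio of 2.82 (2.37 to 3.38) in Xist-only and 0.716 (0.623 to 0.824) in Y-only members, and Ccl12, a monocyte attractant, 1.35 (1.05 to 1.76) and 0.172 (0.144 to 0.204). For 7 chemokines, among them Ccl3, Ccl4, Ccl5, Cxcl2 and Cxcl10, the intervals lay below 1 in both kinds of cell. Ccl4, an attractant of monocytes and T cells, stood at 16219 CPM in WT and 6752 CPM in mgR members, a ratio of 0.416 (0.407 to 0.426), and its neighbour Ccl3 at 3934 and 2327 CPM. Cxcl2, a neutrophil attractant, stood at 29162 and 14359 CPM, and Cxcl10, an interferon-induced ligand, at 2373 and 1046 CPM. Il1b stood at 3194 and 1772 CPM, a ratio of 0.555 (0.527 to 0.584), and Il1a, a gene of the rule, at 497 and 184 CPM, a ratio of 0.371 (0.323 to 0.427). Il1rn, the antagonist of their receptor, stood at 322 and 137 CPM, and Il10, an anti-inflammatory cytokine, at 206 and 75.5 CPM, a ratio of 0.366 (0.294 to 0.457). The ratio was 0.281 in Xist-only and 0.455 in Y-only members for Il1a, and 0.649 and 0.509 for Il1rn, with intervals below 1. Tnf stood at 0.755 (0.715 to 0.798) and did not pass the fold. Several of these differences were also found in set A cells, where Il10 had a ratio of 0.428 (0.348 to 0.531) and Ccl5 of 0.452 (0.359 to 0.576), so they were not seen in members alone.

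Not every chemokine was lower. Cxcl9, an interferon-gamma target that draws T cells, stood at 18.5 CPM in WT and 178 CPM in mgR members, a ratio of 9.64 (5.35 to 19.4). Ccl17, a ligand of Ccr4, had 2 UMIs in WT members and stood at 97.9 CPM in mgR, a ratio of 29.2 (8.01 to 242). Both rested on few cells. Ccl17 UMIs lay in 2 WT and 13 mgR members, and Cxcl9 UMIs in 2 and 25, with 94.5% of the mgR Cxcl9 UMIs in 10 cells. Ccl17 stood at 134 CPM in Xist-only and 6.37 CPM in Y-only mgR members. For Cxcl9 the ratio was 2.33 (1.28 to 4.72) in Xist-only members, and at least 14.8 in Y-only members, where WT had 0 UMIs.

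The 8 lowest named genes in mgR members were Mmp13, AY036118, Cd207, Plau, Mmp12, Ccl5, Rgs1 and Il10. Mmp13, an interstitial collagenase, stood at 468 CPM in WT and 59.3 CPM in mgR members, a ratio of 0.127 (0.105 to 0.152), with UMIs in 44.2% and 13% of cells. Cd207, which encodes langerin, stood at 431 and 86.7 CPM, with UMIs in 30.2% and 12.2% of cells and 0 UMIs in set A cells of both libraries. Plau, the urokinase that activates plasmin, stood at 772 and 242 CPM, and Rgs1, a brake on chemokine receptors, at 1198 and 427 CPM. AY036118, a long noncoding RNA gene on chromosome 17, stood at 3368 and 654 CPM. In set A cells AY036118 was also lower in mgR, at 2472 and 608 CPM. So it was in fibroblast-gated cells, at 2862 and 635 CPM, and in the T and NK gate, at 3534 and 840 CPM. Its difference was not particular to members. Ratios in set A cells were also below 1 for Mmp13, at 0.207 (0.133 to 0.332), and Plau, at 0.535 (0.466 to 0.617). They were 0.0329 (0.0130 to 0.0770) for Mmp12, on 18 and 9 UMIs, and 0.742 (0.564 to 0.993) for Rgs1. Macrophages in neither set held Cd207 at 183 and 18.8 CPM, and dendritic-gated cells at 459 and 331 CPM, so Cd207 was not particular to members. The ratios of Mmp13, Cd207, Plau, Mmp12, Ccl5, Rgs1 and Il10 were below 1, with intervals below 1, both in Xist-only and in Y-only members.

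The 8 highest were Mgp, Cbr2, Tppp3, Nupr1, Spp1, Dek, Bod1l and Tuba1a. Spp1, osteopontin, stood at 70.5 CPM in WT and 168 CPM in mgR members, a ratio of 2.38 (1.74 to 3.33), against 0 UMIs and 17.8 CPM in set A cells, and the ratio was 2.42 in Xist-only and 2.45 in Y-only members. Mgp, an inhibitor of calcification made mainly by stromal cells, stood at 28.5 and 188 CPM, but the 10 highest mgR members held 83.4% of its UMIs, and among members with 0 set A genes the ratio was 1.30 (0.744 to 2.43). It was 4.45 (2.14 to 11.1) in Xist-only and 2.19 (0.840 to 7.22) in Y-only members. The fibroblast marker Dcn moved with it, at 21.8 and 89.8 CPM. Cbr2, a gene of resident macrophages, stood at 42.0 and 165 CPM, with a ratio of 6.36 (3.07 to 15.9) in Xist-only and 1.67 (0.925 to 3.22) in Y-only members. Its levels were 7.90 and 24.4 CPM in members with 0 set A genes and 235 and 372 CPM in members with at least 1. Tppp3, Nupr1, Dek and Bod1l had ratios above 1, with intervals above 1, in Xist-only and in Y-only members, whereas Tuba1a, a tubulin, had 1.22 (0.777 to 2.04) in the former and 6.04 (2.84 to 15.4) in the latter. These rises were not all particular to members. In set A cells Mgp had a ratio of 1.69 (1.17 to 2.55) and Cbr2 of 1.53 (1.38 to 1.70). There Tppp3 had 1.64 (1.22 to 2.27) and Nupr1 1.27 (1.06 to 1.53), whereas the intervals of Dek, Bod1l and Tuba1a held 1. Monocyte-gated cells held Spp1 at 42.6 CPM in WT (2 UMIs) and 526 CPM in mgR.

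**Figure D5:**
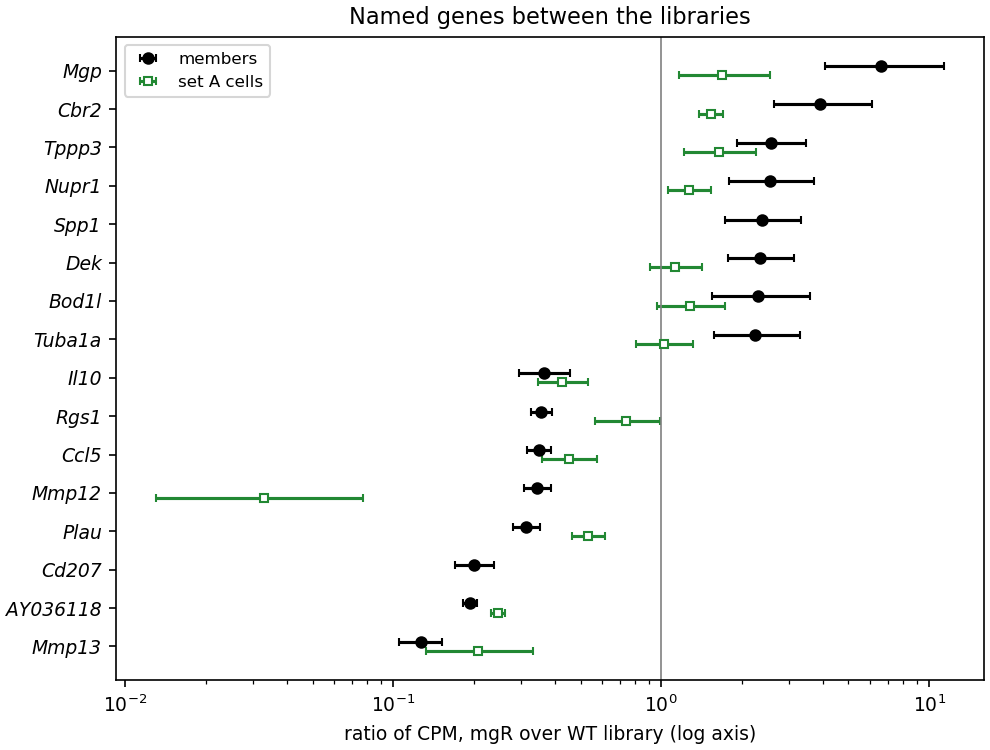
Ratio of CPM, mgR over WT library, on a logarithmic axis for the 16 named genes, in members (black circles) and in set A cells (green squares), with exact conditional binomial 95% intervals. In set A cells no ratio is drawn for Cd207 and Spp1, which had 0 UMIs in WT. Mmp13 is lowest at 0.127 and Mgp highest at 6.6 in members, and AY036118 lies at about the same place in both populations.

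Resident macrophage genes were higher in mgR members as a group, 8 of 14 tested, with 0 lower and a median log2 ratio of 0.71. Over all genes tested, the background for each group in this paragraph, 20.6% were higher and 5.98% lower, at a median of 0.17. Mrc1 stood at 263 CPM in WT and 453 CPM in mgR members, and Gas6 at 33.6 and 90.6 CPM. Members with at least 1 set A gene were 14% of WT and 36.9% of mgR members, and Mrc1 was 762 and 767 CPM in these. Among members with 0 set A genes, Mrc1 was 176 and 240 CPM. The ratio of Mrc1 was 2.29 (1.72 to 3.11) in Xist-only and 1.08 (0.832 to 1.42) in Y-only members, and 0 of the 20 listed resident genes had intervals above 1 in both. Monocyte and recruited macrophage genes were also higher, 8 of 11 with 0 lower. S100a4 stood at 425 and 840 CPM, with ratios of 3.16 (2.45 to 4.15) in Xist-only and 1.81 (1.47 to 2.25) in Y-only members, and Plac8, a gene of circulating monocytes, had 0 UMIs in WT and stood at 38.9 CPM in mgR members, at least 7.72-fold higher, but 9 of the 401 mgR cells held all of its UMIs. Of 17 cell cycle genes, 11 were higher in mgR and 0 lower. Mki67 had a ratio of 2.09 (1.54 to 2.90) over all members, but 1.33 (0.915 to 1.99) among Xist-only and 0.911 (0.478 to 1.83) among Y-only members. Top2a, the topoisomerase of dividing cells, had ratios of 1.77 (1.31 to 2.44) over all members, 0.981 (0.706 to 1.40) in Xist-only and 1.15 (0.473 to 3.18) in Y-only members. The intervals of both genes held 1 within each kind of cell.

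Of 10 MHC class II genes tested, 2 were lower in mgR than in WT members (H2-Eb1 and their regulator Ciita) and 0 higher, beside 5.98% and 20.6% of all genes. H2-Eb1 had a ratio of 0.666 (0.647 to 0.687). H2-Ab1, at 0.709 (0.687 to 0.731), did not pass the fold, and Ifi30, a lysosomal thiol reductase, stood at 1.31 (1.16 to 1.47). The kinds of cell differed here. H2-Ab1 had a ratio of 0.561 (0.535 to 0.588) in Xist-only members and of 1.0 (0.948 to 1.06) in Y-only members, and H2-Eb1 of 0.523 (0.50 to 0.547) and 0.875 (0.828 to 0.925). H2-Aa turned direction, at 0.576 (0.549 to 0.604) and 1.11 (1.05 to 1.18). The other genes of set B did not pass the fold over all members. Cx3cr1 stood at 263 and 272 CPM, a ratio of 1.03 (0.871 to 1.23), but its ratio was 1.87 (1.34 to 2.69) in Xist-only and 0.739 (0.554 to 0.994) in Y-only members. Slamf7 went the other way, at 0.675 (0.533 to 0.865) and 1.37 (1.03 to 1.86). Over all members Tnfsf13b stood at 73.8 and 80.3 CPM. Cd72, Gpr84, Slamf7 and Scimp had ratios between 0.747 and 0.848.

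Markers of other cells were low in members. The summed level of 6 fibroblast markers outside the gate was 25.2 CPM in WT and 113 CPM in mgR members, with a highest cell of 283 and 9421 CPM, and Pdgfra was at 0 in both. Neutrophil markers summed to 25.2 and 40.0 CPM, dendritic cell markers to 35.2 and 32.7 CPM, and the 8 melanocyte markers to 0 and 0.559 CPM. B cell markers summed to 107 and 147 CPM, close to the 134 and 161 CPM of set A cells, and Cd79a, Ms4a1, Igkc and Pax5 were at 0 in WT members. Haemoglobin and erythroid genes summed to 146 and 1095 CPM, with 1 mgR member at 361688 CPM. Scrublet marked 0 WT and 5 mgR members as doublets. The part of these cells in the differences between libraries was not tested beyond the alternatives given for doublets and for members with 0 set A genes.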

How the data were processed

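Expression was measured by 3-prime single-cell RNA-Seq in 1 WT and 1 mgR library. The authors deposited counts, that is, UMIs per gene and barcode for 32285 features. The submitters' processing notes name Cell Ranger 7.1.0 and mm10, and how intronic reads were counted is not given in the sources used here. Here, the cell filters of the study were applied (200 to 5000 genes, at most 10% mitochondrial UMIs), which kept 875 of 1104 WT and 3438 of 3802 mgR barcodes. The libraries shared 2 barcodes, and 0 of these were members. Of barcodes outside the filters, 0 met the rule. Doublets were not removed in the main analysis. Scrublet (scanpy 1.11.5) marked 0.800% of WT and 1.48% of mgR cells, and their removal was tried as an alternative.

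For each library and population, UMIs were added up and divided by the total (CPM). A gene was tested with at least 50 UMIs and counted past a 1.5-fold ratio, in each library for members against set A cells. Intervals were exact Clopper-Pearson (shares) or conditional binomial (ratios), and those of a difference of shares combined the Clopper-Pearson limits of both shares in Newcombe's way. A population at 0 was set to a floor of 3 counts for bounds. Log2 ratios had 0.5 added to both counts only where either count was 0. Scripts were tested on simulated data. Promoters came from RefSeq sequences of GRCm38.p6, and gene positions from GENCODE for the same build.

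Named genes were the 12 highest and 10 lowest against set A cells (by the library nearer 1) and the 8 highest and 8 lowest between libraries, with at least 100 CPM and a UMI in at least 20% of cells in the higher population. Genes between libraries also needed an interval without 1 and the same direction in per-cell means. Rule, mitochondrial, ribosomal, haemoglobin, predicted, Xist and Y-linked genes were left out. Genes of the rule and of 32 lists could also be named. The members and lists were chosen with earlier results of these data known. Mmp14, the motifs and the split by set A genes were added after values had been seen. Analyses used Python 3.11.15, numpy 2.4.6, scipy 1.17.1 and pandas 2.3.3. Some genes of the lists are not reported here.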

Additional observations from a re-analysis of the deposited data

Results flagged for a closer look

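H2-Eb1, H2-Ab1, H2-Aa and Cd74 had lower levels in mgR than in WT members and higher levels in mgR than in WT set A cells, where no ratio reached 1.5-fold, and these opposite directions were not tested as a difference. The log2 ratio of mgR over WT in members was -0.59 for H2-Eb1, -0.50 for H2-Ab1, -0.42 for H2-Aa and -0.45 for Cd74. In set A cells the ratios were 1.31 (1.14 to 1.53), 1.42 (1.24 to 1.63), 1.19 (1.05 to 1.36) and 1.13 (1.05 to 1.21). With 0 genes of the other set allowed in either population, the ratios in members were 0.739, 0.784, 0.828 and 0.833, and those in set A cells, now 26 WT and 243 mgR cells, were 0.782 (0.576 to 1.09), 1.13 (0.830 to 1.59), 0.700 (0.546 to 0.910) and 0.878 (0.754 to 1.03). The opposite direction was then left for H2-Ab1 alone, with an interval in set A cells that held 1. Among members with UMIs of Y-linked genes and none of Xist the ratios were 0.875 (0.828 to 0.925), 1.0 (0.948 to 1.06), 1.11 (1.05 to 1.18) and 0.923 (0.891 to 0.955).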

How the results depend on the processing

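The lower share of members among mgR macrophages kept its direction under every alternative run. The numbers of genes past the fold, which stood at 257 higher and 441 lower in members and at 1315 higher and 382 lower in mgR members, moved by more than 1.5 times under several settings, in that order: thinning to 3000 UMIs gave 123, 171, 337 and 181, Y-only cells gave 150, 242, 393 and 194, no minimum beyond 1 UMI gave 706, 1361, 2397 and 1871, at least 200 UMIs gave 109, 114, 364 and 132, and a 2-fold limit gave 112, 195, 488 and 89. Xist-only cells gave 121 and 139 in members against set A cells, members and set A cells with 0 genes of the other set, an alternative chosen after seeing the data, gave 243 lower genes, and scaling by the median gene ratio gave 673 genes lower in mgR. Fewer or more genes could pass the minimum under thinning, the single kinds of cell and the other minimums, and of the 257 genes higher in members 124 could be tested after thinning and 105 passed. The stricter fold passes fewer by its construction. Of the 1315 genes higher in mgR, 214 could be tested after thinning and 139 passed. Of the other values, 185 list counts stayed within these limits and 23 did not, 159 ratios of named genes between the libraries stayed and 47 moved, 395 ratios of named genes against set A cells stayed and 129 moved, and 11 shares per library stayed and 7 moved. Directions between the libraries did turn within kinds of cell for genes outside those named by rank between the libraries, such as H2-Aa and Pf4. They also turned with 0 genes of the other set for H2-Eb1, H2-Aa and Cd74 in set A cells. H2-Eb1, H2-Aa and Cd74 had been named by rank against set A cells. The call of Mgp was lost in members with 0 set A genes. No paired analysis was possible because each genotype had 1 library, and for the same reason no replicate could be left out. Depth limits the WT members most, with 595844 UMIs in 86 cells, where a gene at 0 UMIs may still be present.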

Other observations

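Further gene groups were read in members. Of 13 interferon-stimulated genes tested against set A cells, 2 were higher (Isg15 and Irf7) and 0 lower, beside 8.54% and 14.6% of all genes. Between libraries, 4 of 18 were lower in mgR members and 3 higher, beside 5.98% lower and 20.6% higher of all genes tested. Isg15, a ubiquitin-like protein, stood at 512 CPM in WT and 283 CPM in mgR members, whereas Gbp2, an interferon-gamma target, stood at 28.5 and 73.6 CPM, a ratio of 2.58 (1.58 to 4.49). Cd14, the lipopolysaccharide co-receptor, was higher in members than in set A cells, at 2727 against 1590.0 CPM in WT and 1892 against 1252 CPM in mgR.

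Of 8 integrin subunits tested against set A cells, 1 was higher in members, beside 8.54% of all genes tested. It was Itga5, the alpha chain of the fibronectin receptor, at 206 against 129 CPM in WT and 187 against 96.2 CPM in mgR. Itgb1 stood at 404 CPM in WT and 450 CPM in mgR members, a ratio of 1.11 (0.971 to 1.28). Of 15 genes responsive to mTORC1, 6 were lower in mgR members and 1 higher, beside the same 5.98% and 20.6% of all genes. The counting interval lay below 1 for 5 of the 15 and above 1 for 2. Hk2, a glycolytic enzyme, stood at 55.4 and 26.6 CPM, and Slc7a11, the cystine transporter, at 128 and 70.2 CPM. For this group no values are given within Xist-only and Y-only members, and mTOR activity itself was not tested. Tgfbr1, a receptor of TGF-beta, was higher in members than in set A cells, at 354 against 115 CPM in WT and 243 against 100.4 CPM in mgR.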
